A study of Mus musculus with 6 samples.

Results

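Translation initiation factors are the proteins that bring the small ribosomal subunit, the initiator tRNA and the mRNA together. The genes examined here are those whose symbol in the deposited count matrix begins with Eif and a digit from 1 to 6, without pseudogenes, with at least 10 counts in at least 3 hearts. Of 75 genes so named, 53 met this minimum, out of 57180 genes in the matrix and 14717 tested. RNA was sequenced from hearts of male mice of the inbred strain C57BL/6N, aged 6 to 8 weeks. Mice of the heat stroke (HS) group (n = 3) were heated at 40 °C, with a humidity between 60 and 65%, and left the chamber once their core had warmed to 42 °C. Mice of the sham group (n = 3) stayed at 22 to 25 °C. Both groups went without food and water, the labels name no engineered allele, and each library came from 1 heart. How long after the core temperature was reached the hearts were taken is not given in the sources used here, and the submitters' account of RNA extraction speaks of cell lines where their labels name heart.

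In initiation, eIF2 carries the initiator tRNA as a GTP-bound complex to the small subunit, where eIF1, eIF1A, eIF3 and eIF5 help it to scan for a start codon. The eIF4F complex, made of the cap-binding protein eIF4E, the helicase eIF4A and the scaffold eIF4G, recruits the mRNA, and 4E-BP proteins can take eIF4E away from it. In cells under stress, kinases phosphorylate the alpha subunit of eIF2, which blocks its recycling by eIF2B and lowers translation, while mRNAs such as that of Atf4 are translated better. These controls act largely on proteins, which were not measured here. The question addressed was whether the mRNAs of this machinery differed between HS and sham hearts.

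Summed over transcripts, the initiation factor genes lay close together in the 2 groups, and none passed the test. By the quasi-likelihood test of edgeR, adjusted over all genes after Benjamini and Hochberg, 0 of 53 had an adjusted p under 0.05, where 0.0612% of all genes tested did. The smallest adjusted p of a member was 0.350. At an unadjusted p under 0.05, 0 members were higher in HS hearts and 1 was lower, against 8.83% and 4.76% of all genes. Log2 fold changes of HS over sham ran from -0.22 for Eif4a3 to 0.26 for Eif2ak4, with 20 above 0 and 33 below. Their median was -0.04, beside 0.01 over all genes, and the median of their absolute values was 0.11, beside 0.19. By DESeq2, 0 of 53 had an adjusted p under 0.05, where 2.39% of genes with an adjusted p did, and 0 had an unadjusted p under 0.05.

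The intervals limit how large a difference these libraries leave room for. The 95% interval of the log2 fold change lay within -0.5 to 0.5 for 49 of 53 genes and within -1 to 1 for 52. The exception at the wider limit was Eif5a2, the eIF5A paralogue with the fewest counts among members, with an interval from -1.01 to 0.79. An absolute log2 fold change under 0.25 was found for 98.1% of members and 60.2% of all genes tested. Members also varied less among hearts of a group, and neither comparison with all genes was matched for expression level. The median SD of log2 CPM (CPM are counts per 1e6 counts of a library after TMM scaling) was 0.113 over HS hearts and 0.0669 over sham hearts for members, against 0.246 and 0.131 for all genes. Members together took 4229, 4419 and 4463 CPM in HS hearts, against 4387, 4428 and 4437 CPM in sham hearts, a ratio of the group means of 0.989.

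**Figure D1:**
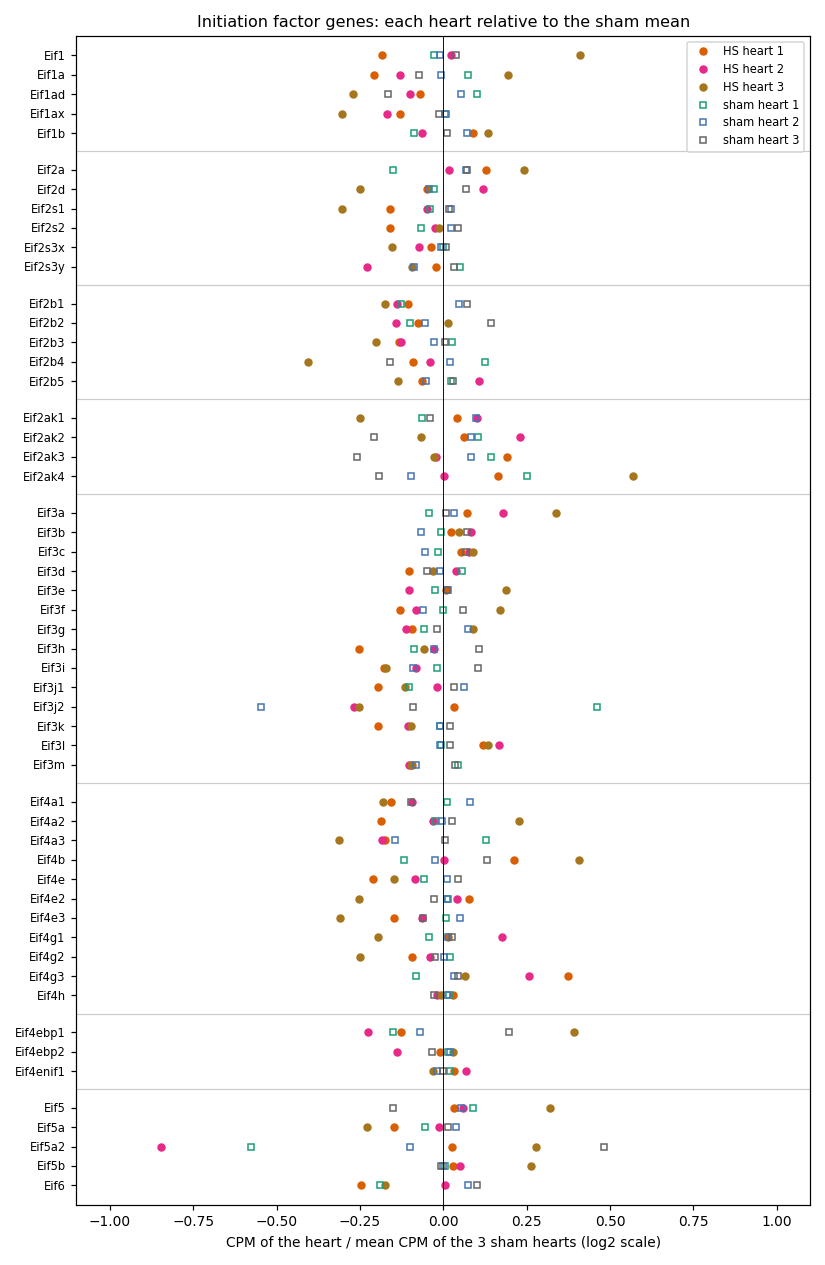
Each row is an initiation factor gene, and each point is 1 heart's CPM over the mean CPM of the 3 sham hearts on a log2 scale, with filled circles for HS hearts, open squares for sham hearts and grey lines between factor groups. Within 0.25 of the sham mean lie 137 of 159 HS points and 153 of 159 sham points. That mean includes the sham points and not the HS points, so sham points lie nearer to it by construction.

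HS hearts differed in how far they stood from the sham mean. The median absolute log2 difference of a member from the sham mean was 0.102, 0.0831 and 0.179 for HS hearts 1 to 3, where all genes had 0.196, 0.158 and 0.368. Groups did not overlap in CPM for 14 members. Of these, 4 were higher in every HS heart (Eif3a, Eif3l, Eif4g3, Eif5b), which is 7.55% of members where 11.0% of all genes tested were. The other 10 were lower in every HS heart (Eif1ax, Eif2s1, Eif2s3x, Eif2b3, Eif3k, Eif3m, Eif4a3, Eif4e, Eif4e3, Eif4g2), which is 18.9% of members where 10.9% of all genes were.

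The libraries themselves differed in other ways. Totals ran from 22098487 to 25855876 counts in HS hearts and from 23368849 to 24222889 counts in sham hearts, so that an observed 0 allows up to 3 counts, or 0.108 to 0.152 CPM. Mitochondrial rRNA took 2.75 to 5.55% of counts in HS hearts and 1.67 to 1.69% in sham hearts. Ventricular cardiomyocyte markers were present throughout, with a summed level of 32144 to 40900 CPM in HS hearts and 35614 to 36708 CPM in sham hearts. The 7 atrial markers summed to 3755, 140 and 2851 CPM in HS hearts 1 to 3, against 92.9 to 113 CPM in sham hearts, so HS hearts 1 and 3 stood apart. Fibroblast markers summed to 699 to 1576 CPM in HS hearts and 576 to 697 CPM in sham hearts, and smooth muscle markers to 207 to 501 CPM in HS hearts and 122 to 157 CPM in sham hearts. Erythroid markers summed to 153, 609 and 1533 CPM in HS hearts 1 to 3 and 135 to 312 CPM in sham hearts. Adipocyte markers summed to 43.8, 0.908 and 8.08 CPM in HS hearts and 0.210 to 2.27 CPM in sham hearts, and both lists overlapped. Of the 8 marker lists, 0 had a tested member with an adjusted p under 0.05, but only 5 of 7 atrial and 1 of 4 adipocyte markers were tested. The part of the markers in the values of the initiation factors was not tested. In whole hearts, fewer cells of a type and less RNA per cell cannot be told apart. The heat-inducible chaperone gene Hspa1b had 803, 1250 and 1373 CPM in HS hearts and 2.91, 1.43 and 3.35 CPM in sham hearts (log2 fold change 8.80, adjusted p = 0.00128, edgeR), as a check of the labels.

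Levels of different genes were set side by side per transcript length, in TPM, the number of transcripts per 1e6. The highest was Eif1, at 331 ± 28.0 TPM in HS hearts and 320 ± 3.53 TPM in sham hearts (SD, n = 3 each). Next came Eif4a2, with 263 ± 2.57 TPM in HS hearts and 273 ± 3.67 TPM in sham hearts. Eif4g2 followed at 219 ± 39.0 TPM in HS hearts and 237 ± 14.3 TPM in sham hearts, and it was below Eif4a2 in every heart. The lowest member was Eif5a2, at 0.449 ± 0.155 TPM in HS hearts and 0.496 ± 0.166 TPM in sham hearts. The eIF2 alpha kinases Eif2ak3 and Eif2ak4 were the next lowest, and their levels did not separate in the HS hearts, at 2.13 ± 0.337 and 2.02 ± 0.402 TPM.

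**Figure D2:**
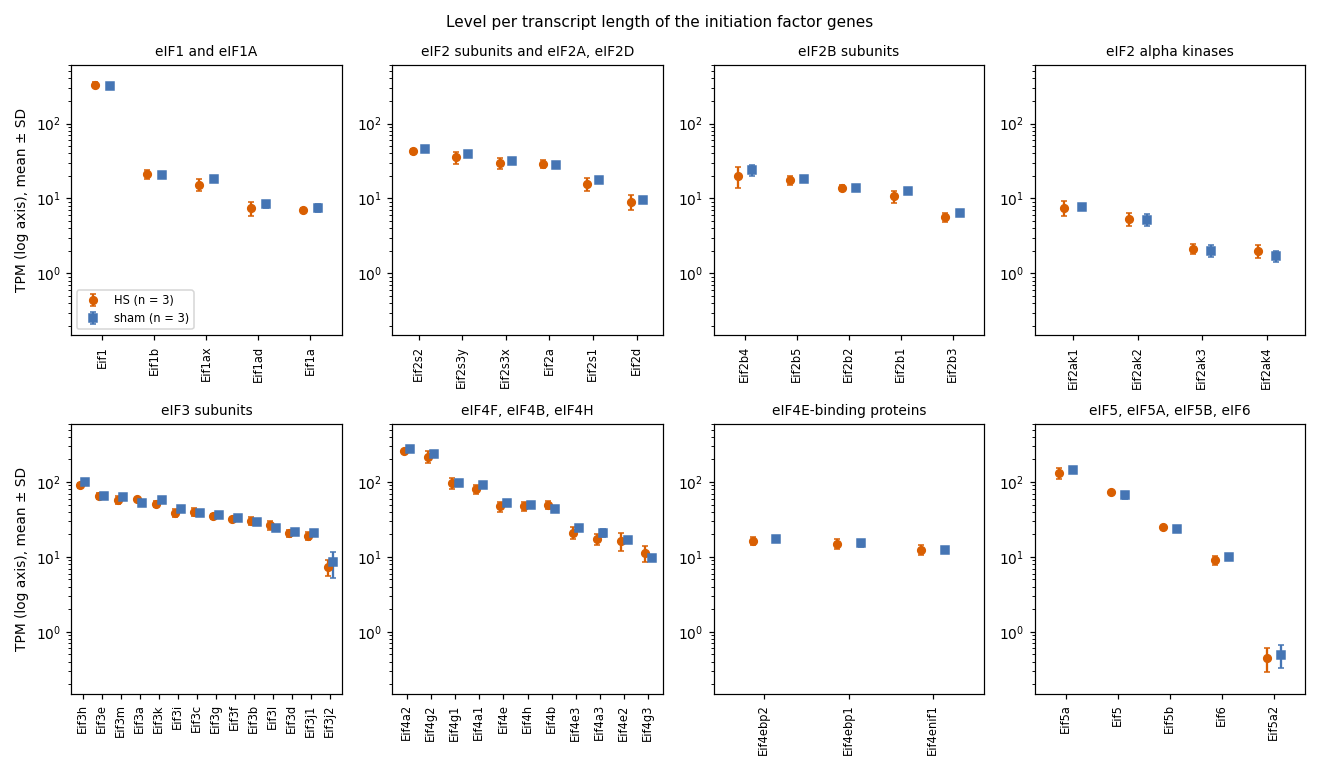
Points give the mean TPM and SD (n = 3 hearts each) of every initiation factor gene on a log axis, with HS to the left of sham and 1 panel per factor group. HS and sham points of a gene lie side by side across the range, from Eif1 at 331 TPM in HS hearts to Eif5a2 at 0.449 TPM.

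The proteins eIF1 and eIF1A bind the small subunit near the start codon. In the group of their genes and genes of related name (5 genes), 2 log2 fold changes were above 0 and 3 below. Eif1ax, the X-linked gene of eIF1A, had 62.1, 60.5 and 55.1 CPM in HS hearts, against 68.2, 68.5 and 67.4 CPM in sham hearts. All HS hearts were below all sham hearts. This was the single member at an unadjusted p under 0.05 (log2 fold change -0.20 ± 0.08 SE, adjusted p = 0.350, edgeR). Eif1, whose protein guards start codon choice, had 273, 315 and 412 CPM in HS hearts and 304, 307 and 318 CPM in sham hearts. HS heart 3 was the highest of the 6 and HS heart 1 the lowest, so the groups overlapped (log2 fold change 0.11, adjusted p = 0.761, edgeR), and without HS heart 3 the value was -0.08. Eif1a, Eif1ad and Eif1b had log2 fold changes of -0.04, -0.14 and 0.06.

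The eIF2 group of 6 genes had 5 log2 fold changes below 0 and 1 above. Eif2s1 encodes the alpha subunit, the one that the stress kinases phosphorylate. Its level was 34.3, 37.0 and 31.1 CPM in HS hearts, against 37.3, 39.0 and 38.8 CPM in sham hearts. The groups did not overlap, but came within 0.235 CPM of each other, and the log2 fold change was -0.17 (95% interval -0.39 to 0.05, adjusted p = 0.460, edgeR). Eif2s2, the beta subunit and the member of this group with the highest TPM, had 76.9, 84.4 and 85.0 CPM in HS hearts and 81.8, 87.1 and 88.5 CPM in sham hearts, with overlap. The gamma subunit has an X-linked and a Y-linked gene in mice, Eif2s3x and Eif2s3y, whose log2 fold changes were -0.09 and -0.11. Eif2a and Eif2d, which encode separate factors able to deliver tRNA without the eIF2 trimer, were at 0.13 and -0.05.

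All 5 subunit genes of eIF2B, the exchange factor that reloads eIF2 with GTP, had log2 fold changes below 0 in the fit of all 6 hearts, from -0.17 to -0.03 with a median of -0.14, and none passed the test. Not all stayed below 0, since Eif2b2 was at 0.0059 without sham heart 3, and Eif2b5 was at 0.023 without HS heart 3 and at 0.11 without HS hearts 1 and 3. Eif2b4 was at -0.065 without HS heart 3. Of all 14717 genes tested, 7164 were below 0 in the fit of all 6 hearts. Eif2b1, the alpha subunit, had 14.6, 14.3 and 13.9 CPM in HS hearts and 14.4, 16.2 and 16.5 CPM in sham hearts. Eif2b4, the delta subunit, had 22.4, 23.2 and 18.0 CPM in HS hearts and 26.0, 24.2 and 21.3 CPM in sham hearts. In both genes the groups overlapped, and the adjusted p values were 0.562 and 0.572 (edgeR). Summed over the 5 subunits, the level was 85.8, 89.7 and 79.6 CPM in HS hearts, against 91.7, 90.2 and 91.2 CPM in sham hearts. Every HS heart was below every sham heart in this sum, at the nearest by 0.440 CPM. The same held for the summed eIF2 group, with 300, 300 and 297 CPM in HS hearts, against 306, 313 and 320 CPM in sham hearts. In the sums of all other factor groups, HS and sham hearts overlapped, and no sum was tested.

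The 4 eIF2 alpha kinases, which respond to haem shortage (Eif2ak1, HRI), double-stranded RNA (Eif2ak2, PKR), unfolded proteins in the endoplasmic reticulum (Eif2ak3, PERK) and uncharged tRNA (Eif2ak4, GCN2), showed no call. Eif2ak4 had 6.50, 5.80 and 8.59 CPM in HS hearts and 6.90, 5.41 and 5.07 CPM in sham hearts. Its log2 fold change of 0.26 was the largest of all members, but it came with overlapping groups and an interval from -0.21 to 0.73 (adjusted p = 0.566, edgeR). HS heart 3 was the highest of the 6. The value was 0.085 without that heart and 0.0017 without HS hearts 1 and 3. Eif2ak1, the kinase with the highest TPM, had 25.4, 26.5 and 20.8 CPM in HS hearts and 23.6, 26.4 and 24.0 CPM in sham hearts. Its log2 fold change of -0.03 took both signs among the alternative settings. Eif2ak2 and Eif2ak3 were at 0.08 and 0.05.

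The 14 genes of eIF3, the large scaffold that joins the small subunit to the mRNA, had 5 log2 fold changes above 0 and 9 below. Eif3a, the largest subunit, had 185, 200 and 223 CPM in HS hearts, against 171, 180 and 177 CPM in sham hearts. All HS hearts were above all sham hearts, and the log2 fold change was 0.20 (95% interval -0.02 to 0.42, adjusted p = 0.395, edgeR). Eif3h, the subunit with the highest TPM, had 79.9, 93.4 and 91.4 CPM in HS hearts and 89.5, 93.4 and 103 CPM in sham hearts, with overlap (log2 fold change -0.11). Subunits of 1 complex thus lay on both sides of 0. Eif3l was above in every HS heart (0.14), and Eif3k (-0.13) and Eif3m (-0.10) were below in every HS heart, Eif3m by 0.468 CPM at the nearest. Summed eIF3 was 842, 885 and 926 CPM in HS hearts and 860, 861 and 895 CPM in sham hearts, a ratio of the group means of 1.01. Eif3j2 is a close copy of Eif3j1, so that reads may be split between them, and its interval, -0.73 to 0.42, was wide.

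**Figure D3:**
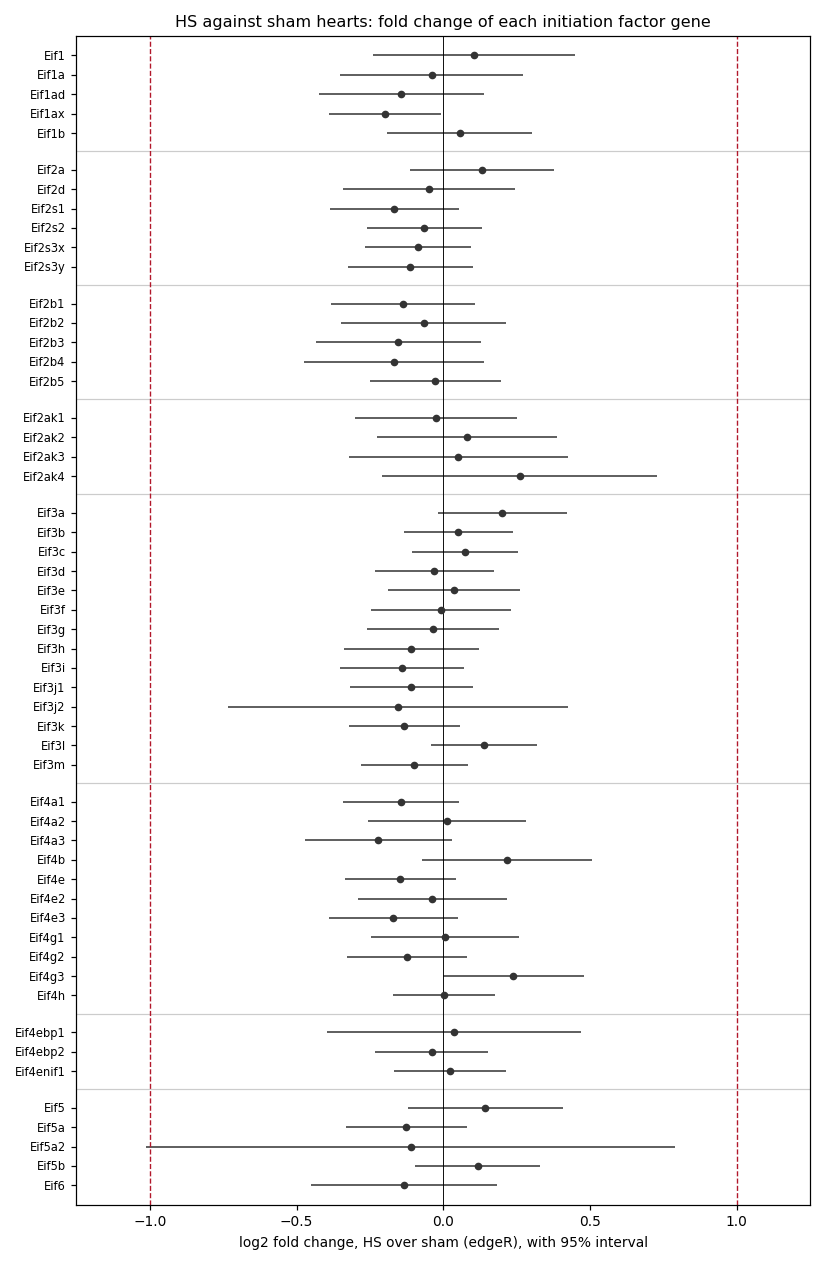
Each row gives a gene's log2 fold change of HS over sham hearts from edgeR with its 95% interval, in the same order as the plot by heart, and the dashed lines mark -1 and 1. All values lie between -0.22 and 0.26, and every interval except that of Eif5a2 stays between the dashed lines.

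Of the 11 genes in the group of eIF4F, its helpers eIF4B and eIF4H, and genes of related name, 5 had log2 fold changes above 0 and 6 below. Eif4g3, a paralogue of the scaffold eIF4G1, had 55.2, 50.9 and 44.6 CPM in HS hearts, against 40.2, 43.6 and 43.9 CPM in sham hearts. HS heart 3 was 0.651 CPM above the highest sham heart, and the log2 fold change was 0.24 (adjusted p = 0.367, edgeR). Eif4a2, the helicase gene with the highest TPM here, had 294, 327 and 392 CPM in HS hearts and 329, 334 and 341 CPM in sham hearts, with overlap and a log2 fold change of 0.01 whose sign turned in 7 alternative settings. Some others are named after their values were seen. Eif4e, which binds the cap, had 94.0, 103 and 98.1 CPM in HS hearts, against 105, 110 and 112 CPM in sham hearts, with no overlap and a log2 fold change of -0.15 (adjusted p = 0.451, edgeR). Eif4a3, a helicase of the exon junction complex rather than of eIF4F, had 20.0, 19.9 and 18.2 CPM in HS hearts and 24.7, 20.4 and 22.7 CPM in sham hearts, and its value of -0.22 was the lowest of all members. Eif4g2, a relative of eIF4G without the part that binds eIF4E, had 824, 855 and 739 CPM in HS hearts and 892, 880 and 864 CPM in sham hearts. The groups were apart by 8.60 CPM or more, at a log2 fold change of -0.12 (adjusted p = 0.535, edgeR).

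None of the genes whose proteins hold eIF4E back passed the test. Eif4ebp2 had the highest mean TPM of the 4E-BP genes, at 16.4 ± 2.16 TPM in HS hearts and 17.3 ± 0.906 TPM in sham hearts, which did not separate from Eif4ebp1, at 15.1 ± 2.26 TPM in HS hearts and 15.3 ± 1.73 TPM in sham hearts. Eif4ebp2 had 72.9, 66.7 and 74.8 CPM in HS hearts and 74.1, 74.5 and 71.6 CPM in sham hearts. The 95% interval of its log2 fold change ran from -0.23 to 0.15. Eif4ebp1 and Eif4enif1, whose protein carries eIF4E into the nucleus, were at 0.04 and 0.02. The value of Eif4ebp1 had a 95% interval from -0.40 to 0.47 and took both signs among the alternative settings, from -0.22 to 0.15. The paralogue Eif4ebp3 had 2, 0 and 2 counts in HS hearts and 0, 3 and 0 counts in sham hearts, under the count minimum.

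Late steps are carried by eIF5, which makes eIF2 hydrolyse its GTP, eIF5B, which joins the subunits, eIF6, which keeps the large subunit free, and eIF5A, which acts mostly in elongation and carries the modified lysine hypusine. Eif5a, the gene of this group with the highest TPM, had 108, 119 and 102 CPM in HS hearts and 115, 123 and 121 CPM in sham hearts, with overlap (log2 fold change -0.13, adjusted p = 0.532, edgeR). The other values were 0.14 for Eif5, 0.12 for Eif5b, -0.11 for Eif5a2 and -0.13 for Eif6. Of the 22 genes named by the rule and not kept, 21 had 0 counts in every heart. These were 17 numbered relatives of Eif1ad together with Eif4e1b, Eif2c5, Eif4a3l1 and Eif4a3l2.

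Ratios between related genes within a heart do not depend on depth or scaling. In 11 pairs of paralogues or partners, the mean log2 ratio differed between the groups by at most 0.236, and 2 pairs had groups apart. Eif4g1 stood to Eif4g3 as 6.04, 7.32 and 6.46 in HS hearts, against 7.96, 7.65 and 7.66 in sham hearts. Eif4g2 stood to Eif4g1 as 2.47, 2.29 and 2.56 in HS hearts, against 2.78, 2.64 and 2.57 in sham hearts, so that HS heart 3 nearly met sham heart 3. For both pairs the two-sided exact permutation p was 0.1, the smallest that 3 against 3 hearts can give, and the adjusted p over 11 pairs was 0.55. With protein-coding transcripts only, the difference of Eif4g2/Eif4g1 was -0.070 on the log2 scale, in place of -0.12, and its groups overlapped (exact permutation p = 0.5). The difference of Eif4g1/Eif4g3 was -0.083 without HS hearts 1 and 3, in place of -0.24. Eif4a1 stood to Eif4a2, the other eIF4A helicase gene, as 0.352, 0.331 and 0.260 in HS hearts and 0.354, 0.366 and 0.317 in sham hearts (exact permutation p = 0.5). That pair's difference, -0.15 on the log2 scale, was 0.04 when only protein-coding transcripts were counted. The cardiac levels of the X-linked and Y-linked eIF2 gamma genes kept a ratio of 1.50, 1.69 and 1.46 in HS hearts and 1.46, 1.61 and 1.49 in sham hearts.

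**Figure D4:**
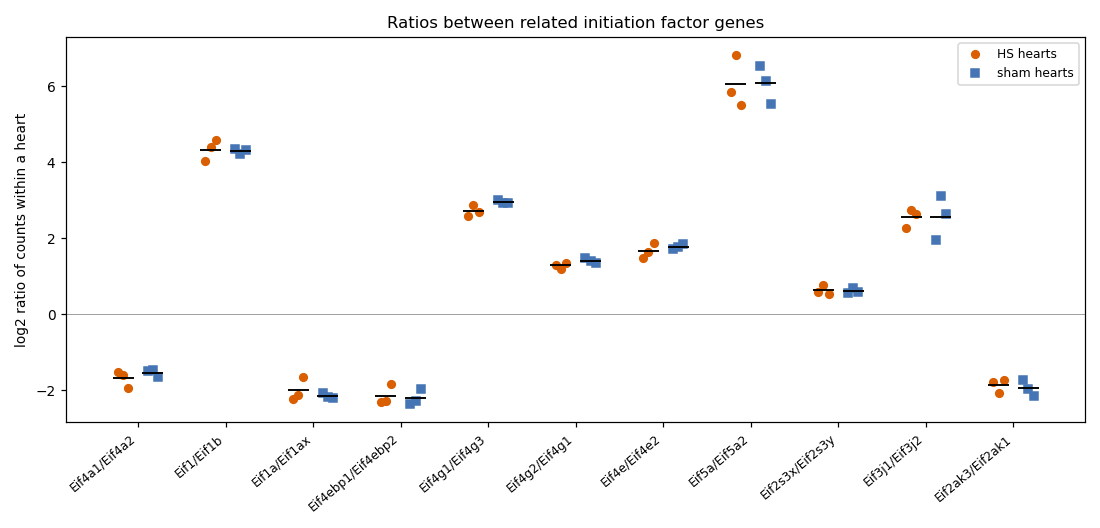
The log2 ratio of counts of the first gene over the second is plotted for each heart, with HS to the left of sham, points for single hearts and black lines for group means. Group means differ by at most 0.236, and the groups are apart only for Eif4g1/Eif4g3 and Eif4g2/Eif4g1.

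The deposited matrix counts transcripts one by one, so that single forms of a gene can also be compared. Of 375 transcripts that the matrix holds for the named genes, 141 transcripts of members were tested. By edgeR, 0 of 141 had an adjusted p under 0.05, where 0.0226% of all 30933 transcripts tested did, and the smallest adjusted p was 0.127. At an unadjusted p under 0.05, 12 were higher (8.51%, against 5.73% of all transcripts) and 7 were lower (4.96%, against 3.88%). By class, this held for 5 higher and 3 lower of 31 transcripts that keep an intron, where 8.78% and 6.60% of all transcripts of that class were. It held for 2 higher and 0 lower of 8 classed as targets of nonsense-mediated decay (4.11% and 3.70% of that class) and for 1 higher and 0 lower of 4 processed transcripts (5.30% and 2.65%). It held for 4 higher and 4 lower of 97 protein-coding ones (5.10% and 3.28%), and 1 transcript had no class in GENCODE vM21. DESeq2 gave 9 of 141 an adjusted p under 0.05 (6.38%, against 2.02% of all transcripts with an adjusted p). Of these 9, 5 (Eif4b-204, Eif4g2-210, Eif4g2-212, Eif5-207 and Eif5-213) had under 10 counts in every heart of 1 group. They passed the filter on low counts through the other group. The same 5 are among the 12 higher and 7 lower by edgeR and in the counts by class. Nothing is therefore read from the size of any of these shares, by DESeq2 or by edgeR. The other 4 that DESeq2 called were Eif4a1-202, Eif4a1-204, Eif4g2-214 and Eif5b-202. The assignment of reads among overlapping transcripts is an estimate whose error is not in these tests.

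Eif4a1, a helicase of eIF4F, had no transcript that passed the test of edgeR. Its forms, and those of Eif5b after it, are described because of their values. The gene lies at chr11:69666936-69672423 on the minus strand (GRCm38). Its coding transcript Eif4a1-213 has 11 exons and 1774 bases. Eif4a1-204 has 10 exons and 1845 bases and differs from it by keeping intron 7, of 71 bases, while Eif4a1-202 keeps introns 3, 4, 6 and 7. Intron 7 is shown because it is the sole difference of Eif4a1-204 from the spliced form and is also kept in Eif4a1-202, and intron 6 because it is the next shortest that Eif4a1-202 keeps, in the sense of the gene from 5′ to 3′, with the splice-site bases at both ends in capitals:
intron 6 at chr11:69668549-69668643: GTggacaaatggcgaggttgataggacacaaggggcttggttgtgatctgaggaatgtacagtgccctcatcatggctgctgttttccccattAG
intron 7 at chr11:69668334-69668404: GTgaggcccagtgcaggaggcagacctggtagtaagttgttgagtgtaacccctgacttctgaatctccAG

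Transcript Eif4a1-204, with intron 7 kept, had 3.64, 5.27 and 5.44 CPM in HS hearts, against 1.52, 1.73 and 0.476 CPM in sham hearts (log2 fold change 1.94 ± 0.50 SE, adjusted p = 0.344 by edgeR and 0.0243 by DESeq2). Transcript Eif4a1-202, with introns 3, 4, 6 and 7 kept, had 5.46, 7.80 and 9.02 CPM in HS hearts, against 3.56, 4.14 and 3.16 CPM in sham hearts (log2 fold change 1.03 ± 0.25 SE, adjusted p = 0.306 by edgeR and 0.0409 by DESeq2). The spliced coding form Eif4a1-213 had 91.7, 92.3 and 82.1 CPM in HS hearts, against 109, 115 and 104 CPM in sham hearts (log2 fold change -0.30 ± 0.09 SE, adjusted p = 0.403, edgeR). In each of the 3 transcripts the groups did not overlap, and Eif4a1-202 and Eif4a1-204 were above sham where the spliced form was below. A further transcript that keeps an intron, Eif4a1-205, lay the other way, with 0.401, 0.515 and 0.605 CPM in HS hearts and 0.841, 0.592 and 0.692 CPM in sham hearts, and its groups overlapped (log2 fold change -0.48, adjusted p = 0.765, edgeR). Retained-intron transcripts made up 9.27, 12.8 and 15.2% of Eif4a1 counts in HS hearts, against 5.10, 5.36 and 4.07% in sham hearts. With 95% Wilson intervals for each heart, the lowest bound in HS hearts was 8.25% and the highest in sham hearts 6.23%, which covers counting error only. Intron 4, kept in Eif4a1-202, contains a small nucleolar RNA gene, whereas introns 6 and 7 contain none.

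Eif5b lies at chr1:37998010-38055579. Its retained-intron transcript Eif5b-202 had 25.3, 32.6 and 33.5 CPM in HS hearts, against 20.0, 17.5 and 19.0 CPM in sham hearts (log2 fold change 0.69 ± 0.14 SE, adjusted p = 0.239 by edgeR and 0.00601 by DESeq2). Its retained-intron share was 19.8, 25.5 and 22.6% of counts in HS hearts, against 16.0, 13.9 and 15.2% in sham hearts. The groups were apart in both measures. The gene Rev1 overlaps Eif5b on the other strand, and whether the counting used strand is not given in the sources used here.

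Over all 14 members with a mean of at least 20 counts on retained-intron transcripts, the share was higher in every HS heart for 4 (28.6%: Eif2s2, Eif4a1, Eif4g2, Eif5b) and lower in every HS heart for 0, while 14.4% and 11.3% of 2468 genes chosen the same way were. For each of the 4 the exact permutation p was 0.1, with an adjusted p of 0.35 over the 14 genes. In Eif4g2 the share was 0.501, 0.503 and 0.471% in HS hearts and 0.269, 0.148 and 0.268% in sham hearts. In Eif2s2 it was 1.80, 1.40 and 1.26% in HS hearts and 1.26, 1.05 and 0.442% in sham hearts, from 38 counts or fewer in a heart. There HS heart 3 (1.264%) and sham heart 1 (1.256%) nearly met. With counts rounded to whole numbers these hearts were at 1.256% and 1.266%, so that the groups overlapped. Of the other 10 genes, Eif2a was the one with the highest share, and its values overlapped. Counted over all members together, retained-intron transcripts took 4.16, 4.62 and 4.38% of counts in HS hearts, against 3.75, 3.50 and 3.83% in sham hearts, with all HS hearts above. Eif4a1 and Eif5b, already apart by themselves, are part of this share, which was not formed without them. It is thus no separate result about the other members. Over all genes in the matrix the same share was 1.47, 1.39 and 1.53% in HS hearts and 1.49, 1.42 and 1.41% in sham hearts, with overlap.

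**Figure D5:**
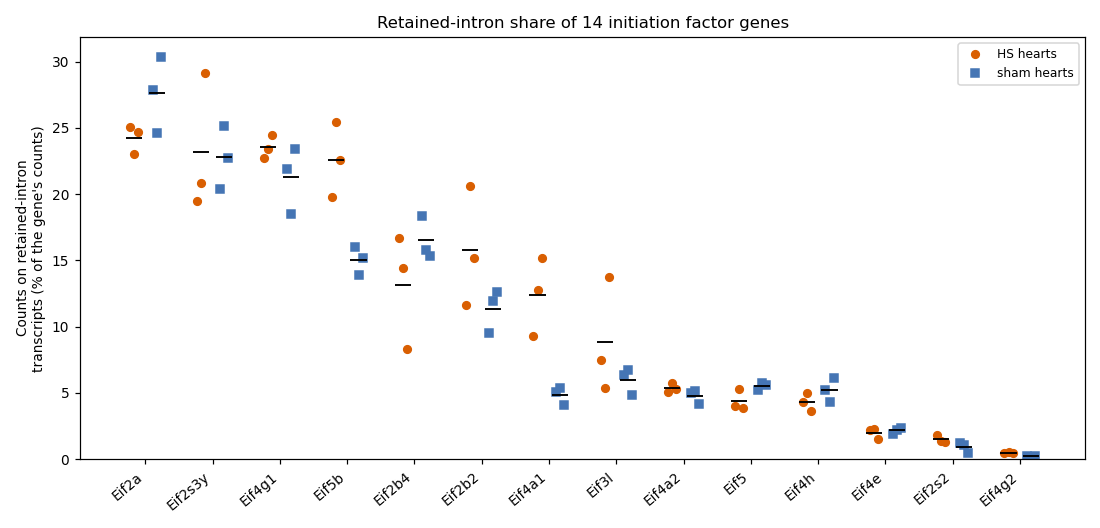
For each of 14 initiation factor genes, the percent of the gene's counts on retained-intron transcripts is plotted by heart, with HS to the left of sham and black lines for group means. Eif4a1 is between 9.27 and 15.2% in HS hearts and between 4.07 and 5.36% in sham hearts. Eif5b and Eif4g2 are also apart, Eif2s2 barely so (1.264% in HS heart 3, 1.256% in sham heart 1), while the other 10 genes overlap.

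Eif4a2 lies at chr16:23107444-23114136, and none of its transcripts passed the test of edgeR or DESeq2. Transcript Eif4a2-204 is classed as a target of nonsense-mediated decay, the pathway that degrades mRNAs with a splice junction well behind the stop codon. It had 51.5, 57.0 and 75.8 CPM in HS hearts, against 38.7, 39.0 and 46.5 CPM in sham hearts (log2 fold change 0.57 ± 0.17 SE, adjusted p = 0.401, edgeR). Eif4a2-210, of the same class and at a higher level, had 110, 120 and 147 CPM in HS hearts and 117, 110 and 129 CPM in sham hearts. Its groups overlapped (log2 fold change 0.08, adjusted p = 0.878, edgeR), and Eif4a2-217, also of this class, was at -0.0045. The coding transcript Eif4a2-202 ends its reading frame at the same position but has 11 exons where Eif4a2-204 has 12, of which 1 lies wholly behind the stop. Its level was 42.8, 54.3 and 70.6 CPM in HS hearts and 75.8, 75.2 and 68.8 CPM in sham hearts. The ratio of Eif4a2-204 to Eif4a2-202, formed after these values were seen, was 1.20, 1.05 and 1.07 in HS hearts, against 0.510, 0.518 and 0.676 in sham hearts. Every HS heart was above 1 and every sham heart below it, which is a description, since the pair was chosen for these values. Retained-intron transcripts of Eif4a2 went both ways: Eif4a2-218 had 7.80, 10.2 and 9.98 CPM in HS hearts and 5.93, 6.47 and 4.24 CPM in sham hearts, and Eif4a2-216 had 2.66, 3.13 and 5.60 CPM in HS hearts and 6.25, 6.85 and 6.10 CPM in sham hearts. Within Eif4a2 lie 5 small nucleolar RNA genes.

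Minor transcripts of other members had large fold changes on few counts. Eif4g2-212, with a kept intron, had 3.46, 3.05 and 2.42 CPM in HS hearts, against 0.240, 0.0845 and 0.303 CPM in sham hearts (log2 fold change 3.80, adjusted p = 0.127 by edgeR and 9.4e-08 by DESeq2), in a gene at 739 CPM or more. Eif4b-204, a coding form of the helicase cofactor eIF4B, had 0.692, 1.07 and 0.857 CPM in HS hearts and 0 counts in each sham heart, which is at least 6.95-fold higher against 3 counts in each sham library. Among the 12 transcripts higher in HS hearts at an unadjusted p under 0.05, 4 (these and Eif5-207 and Eif5-213) had under 10 counts in every sham heart, so they passed the filter on low counts through the HS hearts alone. Likewise Eif4g2-210 of the 7 lower ones had under 10 counts in every HS heart. By the naming rule, Eif5a-201 (1.35, 1.35 and 1.11 CPM in HS hearts, against 3.81, 2.11 and 2.21 CPM in sham hearts) and Eif1-205 (1.35, 2.42 and 3.88 CPM in HS hearts, against 0.401, 0.761 and 1.17 CPM in sham hearts) also stood apart, with adjusted p of 0.428 and 0.443 (edgeR). Both are minor coding transcripts of their genes.

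Genes around the machinery were read from lists of pathway members. Of 15 genes that signal to initiation, 0 had an adjusted p under 0.05, and an unadjusted p under 0.05 was found for 3 that were higher and 0 that were lower, where 8.83% and 4.76% of all genes were. The median log2 fold change was 0.02. Ppp1r15a (GADD34), which brings a phosphatase to eIF2 alpha and so reverses the kinases, had 22.1, 19.9 and 25.6 CPM in HS hearts, against 13.2, 12.3 and 12.1 CPM in sham hearts (log2 fold change 0.84, 95% interval 0.56 to 1.13, adjusted p = 0.122, edgeR). Atf4, a transcription factor of the stress response, had 47.0, 54.7 and 95.6 CPM in HS hearts, against 34.8, 37.7 and 35.4 CPM in sham hearts (log2 fold change 0.87, adjusted p = 0.288, edgeR). The third was Gcn1, a partner of the kinase GCN2, at 0.21 (adjusted p = 0.341, edgeR). In all 3 the groups did not overlap, where 11.0% of all genes tested were higher in every HS heart. Another 3 of the 15 were lower in every HS heart, where 10.9% of all genes were. These were Rps6kb1, Ppp1ca and Ppp1cb, with log2 fold changes of -0.22, -0.20 and -0.09. Of 16 partners in initiation without the Eif name, 0 had an adjusted p under 0.05 and 1 was lower at an unadjusted p under 0.05, where 4.76% of all genes were. This was Dhps, which starts the hypusine modification of eIF5A, at 5.27, 5.57 and 4.73 CPM in HS hearts, against 6.90, 6.46 and 7.64 CPM in sham hearts (log2 fold change -0.43, adjusted p = 0.300, edgeR). The median of that list was 0.01, and Pabpc1, the poly(A)-binding protein that eIF4G holds, was at 0.30 (adjusted p = 0.413).

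Annotation limits some of these values. In GENCODE vM21, 29 of 53 members overlap another gene, 17 of them a gene on the other strand, and 7 hold small nucleolar RNA genes. Counts of such genes, and of close copies such as Eif3j1 and Eif3j2, depend on how the authors' program divided reads that fit more than 1 gene.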

How the data were processed

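Poly(A)-selected RNA of 6 mouse hearts (3 HS, 3 sham) was sequenced in stranded paired-end libraries. Per the study's methods, the authors used fastp for cleaning and Hisat2 for alignment. They deposited estimated counts (expected counts, not normalized) per transcript. The build is mm10 by the submitters' processing notes. Not given in the sources used here are the tool that divided reads among transcripts, its annotation and all versions. Columns were matched to hearts by name. Counts were summed per gene and rounded, genes passed filterByExpr (minimum count 10, total 15), and TMM-scaled counts were compared with edgeR 4.0.16 (robust quasi-likelihood, group only; Benjamini-Hochberg over 14717 genes). Transcripts were tested likewise, over 30933. Software was Python 3.11.15, R 4.3.3, DESeq2 1.42.0, limma 3.58.1 and matplotlib 3.10.9, and fits were tested on simulated data. Log ratios used 0.5 added counts and exact permutation tests. TPM used vM21 lengths. Coordinates and sequence are from GENCODE vM21 (GRCm38, also named mm10).

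The members and lists were chosen with earlier results of these data known. Named by rule were members at an unadjusted p under 0.05, the smallest p and highest TPM of each factor group, and their transcripts at an unadjusted p under 0.05 with at least 1 CPM. Others are named after their values were seen. Totals were 22098487 to 25855876 counts, and intervals of shares cover counting error only. Alternatives were other scalings, filters and tools, a replicate block, leaving out each heart, and leaving out HS hearts 1 and 3. Whether hearts of a group differ by litter or day is not given, so p-values measure the spread between these hearts.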

Additional observations from a re-analysis of the deposited data

How the results depend on the processing

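Under each of 17 alternative fits, 0 of 53 members had an adjusted p under 0.05. The count at an unadjusted p under 0.05, 1 as reported, was 2 with DESeq2 size factors, with at least 10 counts in every heart and with voom quality weights. It was 0 with library size only, with no filter and with DESeq2, 0 to 2 when 1 heart was left out, and 4 without HS hearts 1 and 3, where the spread of the lone HS heart is taken from the sham hearts. The replicate numbers do not pair the hearts (correlations of same-numbered hearts -0.06, 0.13 and 0.01), and a fit with the replicate block gave 0 members at an adjusted and 0 at an unadjusted p under 0.05. For transcripts, DESeq2 called 9 and the other alternatives run 0. Members with the groups apart, 14 as reported, were 9 with library size only, 16 to 23 when 1 heart was left out (23 without HS heart 2) and 34 without HS hearts 1 and 3. Retained-intron shares apart, 4 as reported, were 4 to 7 when 1 heart was left out (7 without HS heart 1 or sham heart 2) and 8 without HS hearts 1 and 3. Both counts of groups apart were chosen after seeing the data. Groups of fewer hearts are apart more easily by construction, most of all where a lone HS heart is left. The matching shares over all genes are not given for the settings with hearts left out. The higher counts in those settings are therefore not read as a stronger separation of the groups.

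Small log2 fold changes changed sign. With 1 heart left out, Eif1 ran from -0.076 to 0.22, Eif2ak1 from -0.098 to 0.071, Eif4a2 from -0.11 to 0.097 and Eif4ebp2 from -0.074 to 0.0049. With voom quality weights the values were -0.049 for Eif1, 0.023 for Eif2ak1 and -0.090 for Eif4a2. Eif4a2 was at -0.028 with upper quartile factors, -0.043 with library size only, -0.0026 with no filter and -0.032 without HS hearts 1 and 3, where Eif2ak1 was at 0.10. Without HS heart 3, Eif3a was at 0.13 in place of 0.20, Eif2s1 at -0.10 in place of -0.17 and Eif5a at -0.079 in place of -0.13. Of the log2 ratios, with 1 heart left out, Eif1/Eif1b ran from -0.093 to 0.18, Eif1a/Eif1ax from -0.018 to 0.27, Eif4ebp1/Eif4ebp2 from -0.093 to 0.18, Eif5a/Eif5a2 from -0.40 to 0.26, Eif2s3x/Eif2s3y from -0.039 to 0.070, Eif3j1/Eif3j2 from -0.31 to 0.27 and Eif2ak3/Eif2ak1 from -0.014 to 0.20. Without HS hearts 1 and 3, Eif4ebp1/Eif4ebp2 was at -0.079, Eif5a/Eif5a2 at 0.76, Eif3j1/Eif3j2 at 0.19 and Eif2ak3/Eif2ak1 at -0.12. With protein-coding transcripts only, Eif4a1/Eif4a2 was at 0.037. The cause of these changes was not tested.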

Other observations

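The factors that act after initiation were also read. Of 11 elongation and release factors, 0 had an adjusted p under 0.05 (edgeR), and 1 was higher at an unadjusted p under 0.05, where 8.83% of all genes tested were. This was Gspt2, at 0.938, 0.434 and 1.93 CPM in HS hearts and 0.399, 0.546 and 0.172 CPM in sham hearts. Its groups overlapped at a low level (log2 fold change 1.52, adjusted p = 0.354, edgeR). Eef1a1, which brings tRNAs to the ribosome, was not under that limit (unadjusted p = 0.0502, edgeR). It had 758, 498 and 950 CPM in HS hearts and 507, 525 and 527 CPM in sham hearts. HS hearts 1 and 3, the hearts with the high atrial marker sums, were above all sham hearts and HS heart 2 was below them (log2 fold change 0.50, adjusted p = 0.367, edgeR). Its paralogue of adult muscle, Eef1a2, had 636, 721 and 627 CPM in HS hearts and 651, 630 and 697 CPM in sham hearts, with a 95% interval of the log2 fold change from -0.21 to 0.22. Eef2, the translocation factor, was at 0.25 (adjusted p = 0.376). Of 9 mitochondrial translation factors, 8 had log2 fold changes below 0, with a median of -0.12, and 0 passed the test at either threshold. These values were not tested for the part of the atrial markers.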
